A study of Mus musculus with 17 samples.

Results

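Immediate early genes are switched on within minutes of a signal reaching a cell, from transcription factors that are already present, and their transcripts are short-lived. They were examined here in the fat pad around the gonads, perigonadal white adipose tissue or pWAT, as a sign of handling or signalling at the time of collection. The group consisted of 10 listed mouse genes, *Fos*, *Fosb*, *Jun*, *Junb*, *Atf3*, *Egr1*, *Nr4a1*, *Ier2*, *Dusp1* and *Zfp36*, matched by Ensembl gene identifier to their symbols. All 10 were found among the 55401 gene identifiers of the table, and all 10 passed the filter on low values in both sexes.

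The tissue came from C57BL/6J mice, either wild-type (WT) or homozygous for a deletion of the long noncoding RNA gene *U90926* (U9-KO). There were 5 WT and 5 U9-KO females, 3 WT and 4 U9-KO males, and 1 RNA-seq library per mouse. All were littermates from heterozygous breeders, ate standard chow and were killed with CO2, at 16 weeks of age according to the methods. The deletion is carried by every cell of the animal, so the comparison is not limited to adipocytes. The sequenced mRNA came from a portion of the pad that was not separated into cell types. Values are counts of reads per gene after scaling of each library by the authors' size factor and rounding, called normalized counts below.

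Behind each library stood an estimated 19700000 to 27600000 counted reads, and mitochondrial transcripts took 3.58% to 7.50% of the normalized counts. The highest share was that of U9-KO female 3, and the next library was at 5.75%. U9-KO female 3 also had the lowest estimated size factor (0.757) and the largest sum of normalized counts, 28620744, with 24033629 in the next library. Its *Fos* value, 376, was the highest of the females. *U90926* itself was at 0 or 1 in the 8 WT mice (above 0 in 2 of them) and at 0 in all 9 U9-KO mice, so at this depth its level did not check the genotype labels. Summed over 5 adipocyte markers, the libraries held between 147066 and 473238 normalized counts, and none of the 5 was at 0 throughout a group. Among the females, WT female 4 and U9-KO female 1 stood apart: 8 ovary markers summed to 122644 and 137236 normalized counts in these libraries, against 3615 to 37257 in the other 8 females and 182 to 415 in males. The comparisons and the spread of the members and the counts of the other gene lists in females are therefore also given without these 2 libraries. The other 8 females were mixed in other ways. Their smooth muscle and pericyte markers summed to between 21197 (U9-KO female 3) and 178572 (U9-KO female 4). Oviduct and uterus markers were highest in WT female 3 (11851) and U9-KO female 4 (6299). Leaving out the 2 libraries does not remove these differences, and their part in the values of the members was not tested.

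In a resting cell, serum response factor with its Elk partners and the cAMP-responsive factor CREB already sit on the promoters of many immediate early genes. When kinase cascades phosphorylate these factors, transcription starts without new protein synthesis. The first proteins made include subunits of the dimeric factor AP-1, other transcription factors, and inhibitors that shut the response down again. In adipose tissue the same genes are known to answer to adrenergic, inflammatory and mechanical signals, and to tissue handling.

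Promoter sequences of 8 of the 10 genes matched in RefSeq (GRCm38.p6), and *Egr1* and *Ier2* had no entry. The 150 bases just before the start site are shown for 5 members, on the strand of the gene, because these stretches differ in which classical response elements they carry. Capitals mark a cAMP response element (CRE, TGACGTCA), its core (TGACG, or CGTCA on the other strand), a CArG box bound by serum response factor, or a TATA box (TATAAA). They lie at chr12:85473740-85473889 (plus strand, *Fos*), chr7:19310046-19310195 (minus strand, *Fosb*), chr15:101266696-101266845 (plus strand, *Nr4a1*), chr17:26508473-26508622 (minus strand, *Dusp1*) and chr7:28379229-28379378 (minus strand, *Zfp36*).
Fos: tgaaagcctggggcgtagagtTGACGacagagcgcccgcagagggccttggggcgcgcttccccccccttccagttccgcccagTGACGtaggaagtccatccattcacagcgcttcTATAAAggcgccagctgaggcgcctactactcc
Fosb: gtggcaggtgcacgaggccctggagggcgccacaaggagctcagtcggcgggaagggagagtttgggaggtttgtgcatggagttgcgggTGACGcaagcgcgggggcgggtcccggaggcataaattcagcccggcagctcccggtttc
Nr4a1: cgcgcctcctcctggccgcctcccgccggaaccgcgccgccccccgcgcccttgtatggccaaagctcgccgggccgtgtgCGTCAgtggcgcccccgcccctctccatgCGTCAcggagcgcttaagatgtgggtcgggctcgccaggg
Dusp1: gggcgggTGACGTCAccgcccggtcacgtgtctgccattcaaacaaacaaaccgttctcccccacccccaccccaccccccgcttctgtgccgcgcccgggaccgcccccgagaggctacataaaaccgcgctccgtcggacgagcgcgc
Zfp36: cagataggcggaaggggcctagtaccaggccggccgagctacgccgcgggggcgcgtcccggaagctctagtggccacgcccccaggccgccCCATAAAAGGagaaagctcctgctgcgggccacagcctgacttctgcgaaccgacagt

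Over the 250 bases before the start, searched on both strands, the CRE core was present in 6 of the 8 member promoters and in 17.8% of all 32851 mouse promoters in the table. *Nr4a1* held 4 such cores and *Fos* 2, at 129 and 66 bases before the start. The full CRE, which contains the core on both strands, occurred in *Dusp1* alone among the 8, 143 bases before its start, and in 1.55% of all promoters. The CArG box occurred in *Zfp36* alone (1.47% of all promoters) and the letters of the TATA box in *Fos* alone (12.4%). The GC box GGGCGG was found in 7 of 8 (32.7% of all), and the AP-1 site TGANTCA in 0 of 8 (6.75% of all). The CRE core and the GC box both contain the letters CG, and the background of all promoters was not matched to the members in base composition. These matches describe the letters of the windows and are not evidence of binding in this tissue. Sites farther from the start, or with other letters, were not searched, so a missing match holds for these windows only.

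All 10 genes were expressed in every mouse, over a wide range of levels. Per kilobase of exon, *Jun* was the most abundant with a mean of 639 ± 187 normalized counts (SD, n = 17 mice), followed by *Dusp1* (416 ± 84.7), *Zfp36* (299.9 ± 72.6), *Egr1* (259 ± 116) and *Ier2* (249 ± 68.4). *Junb* (173 ± 53.3), *Nr4a1* (119 ± 76.3), *Fos* (97.8 ± 38.1) and *Atf3* (63.9 ± 21) came next, and *Fosb* was lowest at 12.5 ± 7.43. *Ier2* exceeded *Junb*, and *Atf3* exceeded *Fosb*, in all 17 mice. The neighbours *Zfp36* and *Egr1* (*Zfp36* higher in 12 of 17 mice), *Egr1* and *Ier2* (9 of 17) and *Nr4a1* and *Fos* (11 of 17) differed by less than the SD of their difference between mice. So did *Junb* and *Nr4a1* (14 of 17) and *Fos* and *Atf3* (14 of 17).

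**Figure D1:**
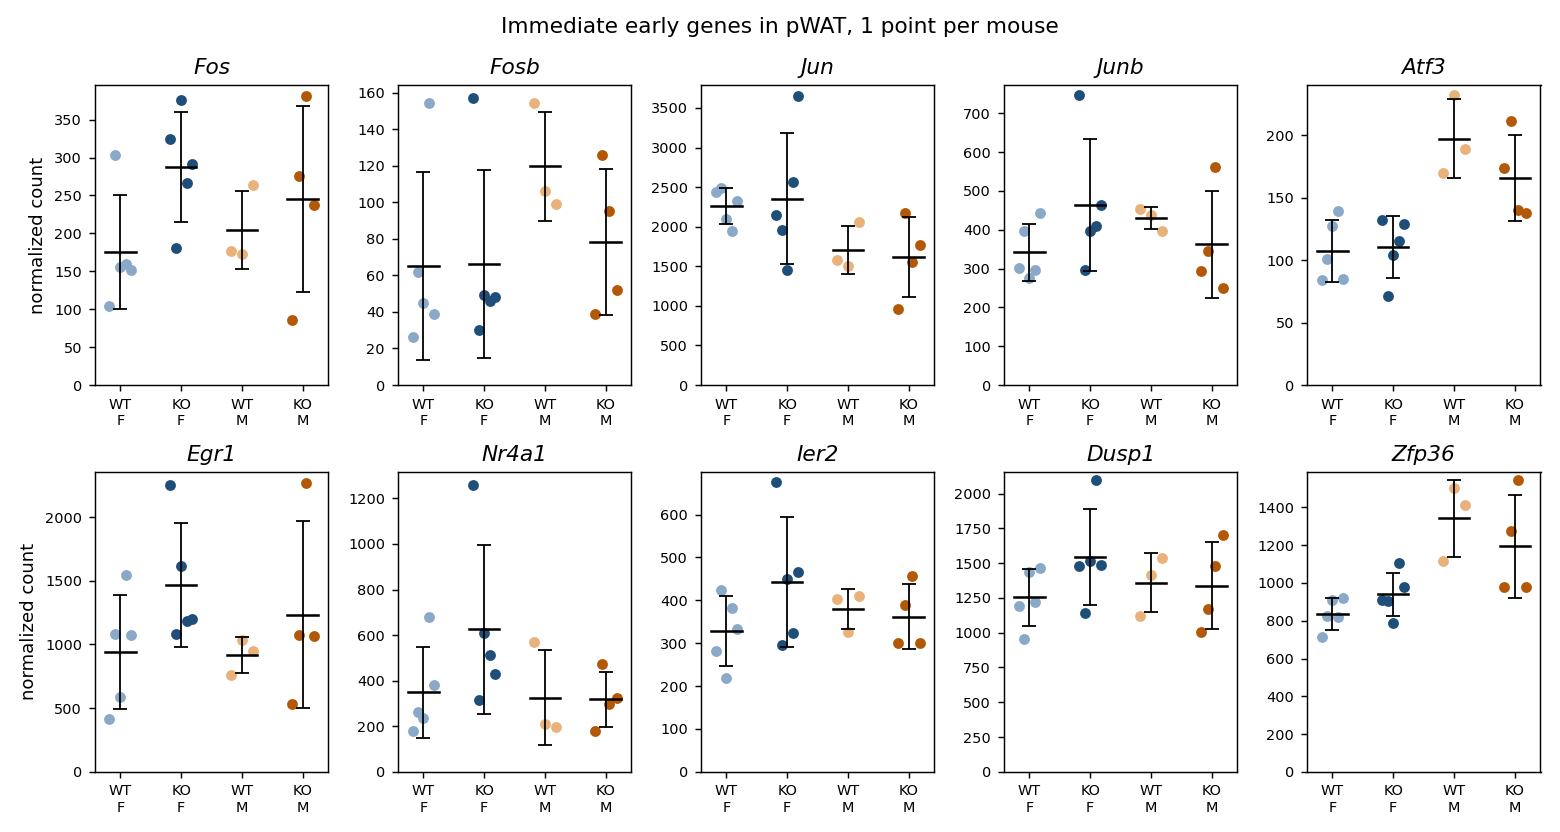
Normalized counts (y axis, from 0) of the 10 immediate early genes in each mouse, by genotype and sex (x axis; F females, M males), with the group mean as a line and the SD as a bar (n = 5, 5, 3 and 4 mice). The groups of either sex overlap in every panel, and *Fosb* shows 1 high mouse in each group of females, at 154 and 157.

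The AP-1 subunits are basic leucine zipper proteins that bind DNA in pairs. *Fos* (ENSMUSG00000021250, chromosome 12, 85473890 to 85477273, plus strand of GRCm38) encodes the founding subunit, which needs a Jun partner. It was measured at 104, 303, 156, 160 and 152 normalized counts in WT females 1 to 5, and the U9-KO females 1 to 5 had 325, 181, 376, 267 and 291. In males it was at 177, 173 and 264 in WT and at 86, 276, 381 and 238 in U9-KO. In females 2 of the 5 knockouts lay above every WT mouse and none lay below the range, but WT female 2 lay within the knockout range, so the groups overlapped. In males the knockouts spanned more than the WT range in both directions.

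*Fosb* (ENSMUSG00000003545, chromosome 7, 19302696 to 19310051, minus strand) encodes a second Fos protein. WT females had 26, 62, 45, 154 and 39 normalized counts, the knockouts 157, 30, 49, 46 and 48, whereas WT males had 154, 106 and 99 and U9-KO males 39, 126, 95 and 52. The high mouse of each group of females was the library rich in ovary markers, and the other 8 females lay between 26 and 62. In males 3 of 4 knockouts were below the lowest WT mouse, and U9-KO male 2 was within the WT range.

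*Jun* (ENSMUSG00000052684, chromosome 4, 95049034 to 95052222, minus strand) encodes the main partner of Fos. It was at 2433, 2483, 2101, 1943 and 2325 in WT females, against 2145, 1955, 1454, 2567 and 3656 in the female knockouts. In males it was at 1574, 1500 and 2055 in WT and at 965, 2179, 1556 and 1769 in U9-KO. Knockouts of both sexes held the highest and the lowest *Jun* value of their sex, so the WT range lay inside the knockout range.

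*Junb* (ENSMUSG00000052837, chromosome 8, 84974484 to 84978718, minus strand) encodes a Jun protein that often restrains Jun. It had 301, 396, 275, 296 and 444 normalized counts in WT females, against 747, 297, 396, 411 and 465 in the female knockouts, with 453, 439 and 398 in WT males and 293, 345, 562 and 250 in U9-KO males. *Atf3* (ENSMUSG00000026628, chromosome 1, 191170296 to 191218039, minus strand), a stress-induced repressor, had 84, 101, 127, 139 and 85 in WT females, against 132, 71, 104, 115 and 129 in the female knockouts. It had 170, 232 and 189 in WT males and 174, 211, 140 and 138 in U9-KO males. *Junb* was highest in U9-KO female 1, and 3 of 4 U9-KO males lay below the WT males for this gene. For *Atf3* the females of both genotypes covered nearly the same range, and 9 of the 10 were below the lowest male, with WT female 4 the exception.

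The remaining transcription regulators belong to other families. *Egr1* (ENSMUSG00000038418, chromosome 18, 34859823 to 34864984, plus strand), a zinc finger factor downstream of the ERK kinases, was at 417, 1078, 584, 1548 and 1076 normalized counts in WT females, against 2252, 1079, 1617, 1181 and 1196 in the female knockouts. In males it was at 763, 1036 and 952 in WT and at 529, 1073, 2264 and 1066 in U9-KO. Among females the 5 knockouts were all above 4 of the 5 WT mice, by 1 normalized count for the closest pair, and WT female 4 lay inside the knockout range. Among males 3 of 4 knockouts were above the WT range and U9-KO male 1 was below it.

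*Nr4a1* (ENSMUSG00000023034, chromosome 15, 101254269 to 101274795, plus strand), an orphan nuclear receptor induced by cAMP, was at 181, 261, 238, 680 and 380 in WT females, against 1260, 314, 609, 512 and 429 in the female knockouts. It was at 569, 211 and 198 in WT males and at 180, 472, 296 and 325 in U9-KO males. *Ier2* (ENSMUSG00000053560, chromosome 8, 84661331 to 84662852, minus strand), which encodes a small nuclear protein, had 282, 425, 219, 383 and 334 in WT females, against 677, 295, 450, 323 and 466 in the female knockouts, with 403, 326 and 411 in WT males and 301, 388, 457 and 301 in U9-KO males. U9-KO female 1 was the highest of the 10 females for both genes, and the groups overlapped in both sexes.

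The last pair acts as feedback. *Dusp1* (ENSMUSG00000024190, chromosome 17, 26505590 to 26562128, minus strand) encodes a phosphatase that inactivates MAP kinases. It was at 1194, 958, 1435, 1224 and 1462 in WT females, against 1483, 1141, 1516, 2101 and 1486 in the female knockouts, and at 1123, 1418 and 1541 in WT males and 1003, 1169, 1477 and 1702 in U9-KO males. In females 4 of the 5 knockouts exceeded all WT mice, and U9-KO female 2 lay within the WT range. *Zfp36* (ENSMUSG00000044786, chromosome 7, 28376784 to 28380253, minus strand) encodes tristetraprolin, which marks AU-rich transcripts for decay. It was at 712, 827, 908, 818 and 922 in WT females, against 911, 907, 790, 1106 and 981 in the female knockouts, and at 1114, 1504 and 1413 in WT males, against 977, 1276, 1545 and 978 in the male knockouts. It varied least among the females, whose 10 values lay between 712 and 1106.

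The first comparison asked whether the knockouts of either sex differed from WT mice in these genes. In females 9 of the 10 members were higher in U9-KO than in WT (49.9% of all genes tested were higher), but none passed an adjusted p of 0.05 in limma, where 0 of 24825 genes did (0%). The median log2 fold change of the members was 0.34, beside 0.00 over all genes. At an unadjusted p below 0.05, limma returned 2 of 10 members and 553 of 24825 genes (2.23%). The first was *Fos*, whose mean of 175 ± 75.1 normalized counts in WT females compared with 288 ± 72.5 in knockouts (SD), a log2 fold change of 0.77 with an SE of 0.27. The other was *Egr1*, at 941 ± 449 and 1465 ± 486, a log2 fold change of 0.73 with an SE of 0.33. The unadjusted p of limma was 0.0151 for *Fos* and 0.0496 for *Egr1*. The largest fold was that of *Nr4a1*, at 0.84 with an SE of 0.40 on the log2 scale, and its 95% interval ran from -0.04 to 1.71. Then came *Ier2* (0.40), *Junb* (0.39), *Dusp1* (0.29) and *Zfp36* (0.16), and *Fosb*, *Atf3* and *Jun* were between -0.00 and 0.04. The adjusted p was 1 for all 10 in limma. In the two-sided exact permutation test of 5 against 5 mice, which cannot go below 0.0079, *Fos* had p = 0.0397, *Egr1* p = 0.0873 and *Nr4a1* p = 0.111. No member had groups that did not overlap (0.238% of genes in the background).

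**Figure D2:**
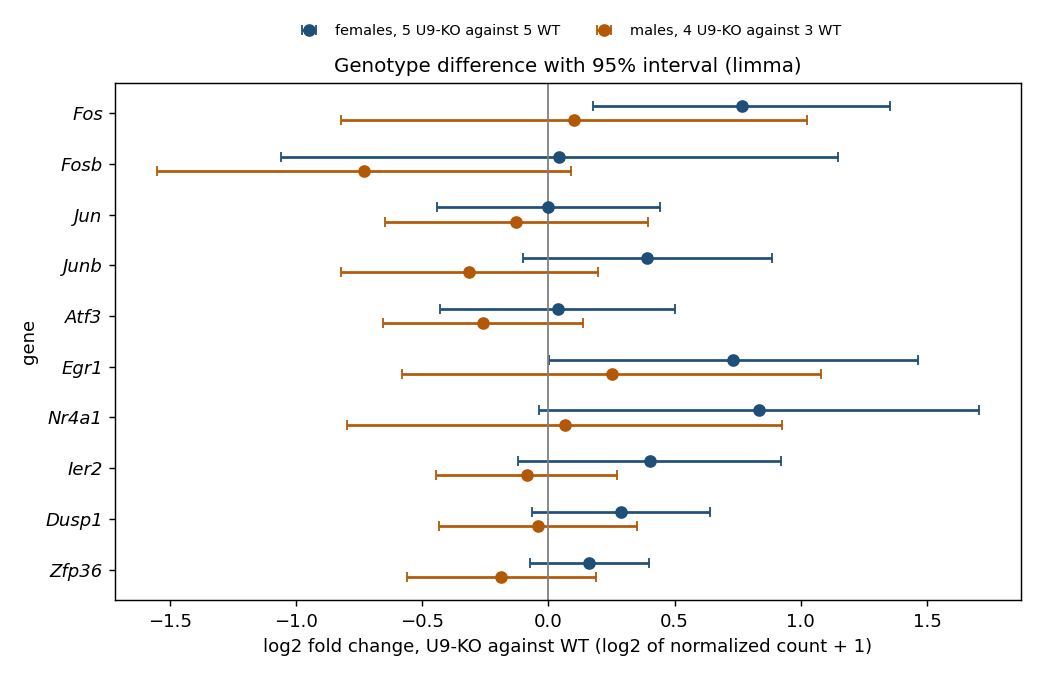
Log2 fold change of each member in U9-KO against WT mice (x axis, log2 of normalized count plus 1) with its 95% interval from limma, for females (n = 5 and 5) and males (n = 4 and 3). The points for females lie at or right of 0 and reach 0.84 for *Nr4a1*, those for males lie on both sides of 0 and reach -0.73 for *Fosb*, and the interval excludes 0 only for *Fos* and *Egr1* in females, before adjustment.

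The libraries rich in ovary markers belonged to opposite genotypes, and both were high in some members. Without them, 9 of 10 members were still higher in the knockouts, with a median log2 fold change of 0.23, and 2 had an unadjusted p below 0.05 in limma (481 of 23864 genes, 2.02%). These were *Nr4a1* (0.82, SE 0.25) and *Egr1* (0.78, SE 0.30). *Fos* was then at 0.70 with an SE of 0.32. *Junb* moved most among the members that had been higher, from 0.39 to 0.16 (SE 0.19). *Ier2* was at 0.30 (SE 0.22), *Dusp1* at 0.29 (SE 0.20) and *Zfp36* at 0.16 (SE 0.13), and *Atf3* (0.06, SE 0.22), *Fosb* (0.05, SE 0.30) and *Jun* (-0.04, SE 0.24) stayed near 0. The remaining *Egr1* values ran from 417 to 1078 in 4 WT mice and from 1079 to 1617 in 4 knockouts and did not overlap, as for 1.08% of genes, while the groups overlapped for the other 9 members. With the mean log2 level of the 8 ovary markers as a covariate in all 10 females, 5 members had an unadjusted p below 0.05 (745 of 24825 genes, 3%). *Nr4a1* was then at 1.01 with an SE of 0.17 (limma unadjusted p = 8.84e-05, adjusted p = 0.987) and *Egr1* at 0.87 with an SE of 0.19. In both of these settings, which were chosen after the data were seen, 0 genes passed the adjusted threshold. Plasma cell markers were also higher in the female knockouts in 4 of 4 genes (summed range 7272 to 19090, against 4826 to 6898 in WT). Endothelial (4 of 4), red blood cell (4 of 4) and neutrophil markers (3 of 3) were higher as well. Macrophage (5 of 5), mesothelial (4 of 4), skeletal muscle (3 of 3 tested) and smooth muscle and pericyte markers (4 of 5) were lower. Unlike those of plasma cells, the summed ranges of these other markers overlapped between the genotypes. The part of any of these cells in the values of the members was not tested. In tissue of mixed cells, fewer cells of a type and less RNA per cell cannot be told apart.

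In males 3 of the 10 members were higher in U9-KO than in WT mice (50.1% of genes were) and 7 lower, with a median log2 fold change of -0.11, beside 0.00 over all genes. None passed the adjusted threshold, as 0 of 21930 genes did (0%), and none had an unadjusted p below 0.05, whereas 1667 genes did (7.6%). *Fosb* had the largest difference at -0.73, with an SE of 0.37 and an adjusted p of 0.666 in limma, and *Junb* followed at -0.31 (SE 0.23). *Egr1* was at 0.25 with an interval from -0.58 to 1.08, so that a difference of the size seen in females lay within the error for males. The exact permutation test of 3 against 4 males cannot go below 0.0571, and the smallest value among the members was 0.229, for *Fosb*. None of the 10 had groups that did not overlap, compared with 7.6% of all genes.

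The difference in the genotype effect between sexes was tested directly with the interaction term. All 10 members had a negative term, meaning a lower effect in males than in females (49.7% of genes had a positive one), with a median of -0.48 on the log2 scale. None of the 10 passed the adjusted threshold in limma, as 0 of 26289 genes did (0%), and 0 had an unadjusted p below 0.05, against 910 genes (3.46%). *Junb* came closest, at -0.71 with an SE of 0.36 (limma unadjusted p = 0.0637, adjusted p = 1). Without the 2 libraries rich in ovary markers, all 10 terms were negative again, with a median of -0.43.

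Levels differed between the sexes for 3 of the 10 members, on a background in which 10477 of 26289 genes passed the threshold (39.9%) and 36.5% were higher in males at any p. The ranges of males and females overlapped for all 10 members (11.8% of genes did not overlap). *Atf3* was higher in males by 0.73 on the log2 scale (SE 0.15, n = 7 males and 10 females, limma adjusted p = 0.000775) and *Zfp36* by 0.49 (SE 0.11, limma adjusted p = 0.00134), and 10.9% of all genes were called higher in males. *Jun* was lower in males, at -0.48 (SE 0.16, limma adjusted p = 0.0272). The size factors appeared to have been set within each sex, which the methods do not state. The median of all genes was -0.16 in this fit, -0.05 after joint scaling of the 17 libraries and 0.07 after quantile normalization. *Atf3* (0.85 and 1.10) and *Zfp36* (0.60 and 0.55) passed the threshold under both of these scalings, while *Jun* was at -0.36 with an adjusted p of 0.0950 in limma after joint scaling and at -0.46 with an adjusted p of 0.0382 after quantile normalization. *Fosb*, at 0.70 with a limma adjusted p of 0.137, was at 0.81 with an adjusted p of 0.0826 after joint scaling and at 1.16 with an adjusted p of 0.0118 after quantile normalization. Without the 2 libraries rich in ovary markers *Fosb* reached 1.07 with a limma adjusted p of 0.00354. Many cell markers also moved with sex. In males macrophage markers were higher in 5 of 5 genes (summed range 15404 to 35488, against 9662 to 20248 in females), adipocyte markers in 5 of 5 (351082 to 473238, against 147066 to 352559) and red blood cell markers in 4 of 4 (48082 to 121809, against 11424 to 41644). Smooth muscle and pericyte markers were lower in males in 4 of 5 genes (11246 to 16657, against 21197 to 178572), as were the ovary markers, the 4 oviduct and uterus markers (779 to 1683, against 2018 to 11851) and the 4 B cell markers (214 to 730, against 255 to 1316). The part of these cells in the levels of the members was not tested.

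Mice of the same group varied more in these genes than in most others. In females the residual SD of the members had a median of 0.42 on the log2 scale, beside 0.28 over 17283 genes with a mean of at least 10. In males it was 0.41 beside 0.18 over 16304 genes. All 10 members lay above the median gene in males, between the percentiles 65.8 (*Ier2*) and 97.1 (*Fos*), and 8 of 10 did in females, between 23.4 (*Zfp36*) and 94.2 (*Fosb*). *Fos*, *Nr4a1* and *Egr1* were the most variable in males. In females these were *Fosb*, *Nr4a1* and *Egr1*, but the spread of *Fosb* included the libraries rich in ovary markers, at 154 and 157 against 26 to 62 in the other mice. Without them the residual SD fell from 0.92 to 0.43 for *Fosb* and from 0.74 to 0.42 for *Nr4a1*, and *Fos* (0.55) and *Egr1* (0.51) came first. The median of the members was then 0.39, beside 0.25 over 17216 genes, with 9 of 10 above the median gene. *Zfp36* had the smallest spread of the members in females with and without these libraries, at 0.16 and 0.19.

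**Figure D3:**
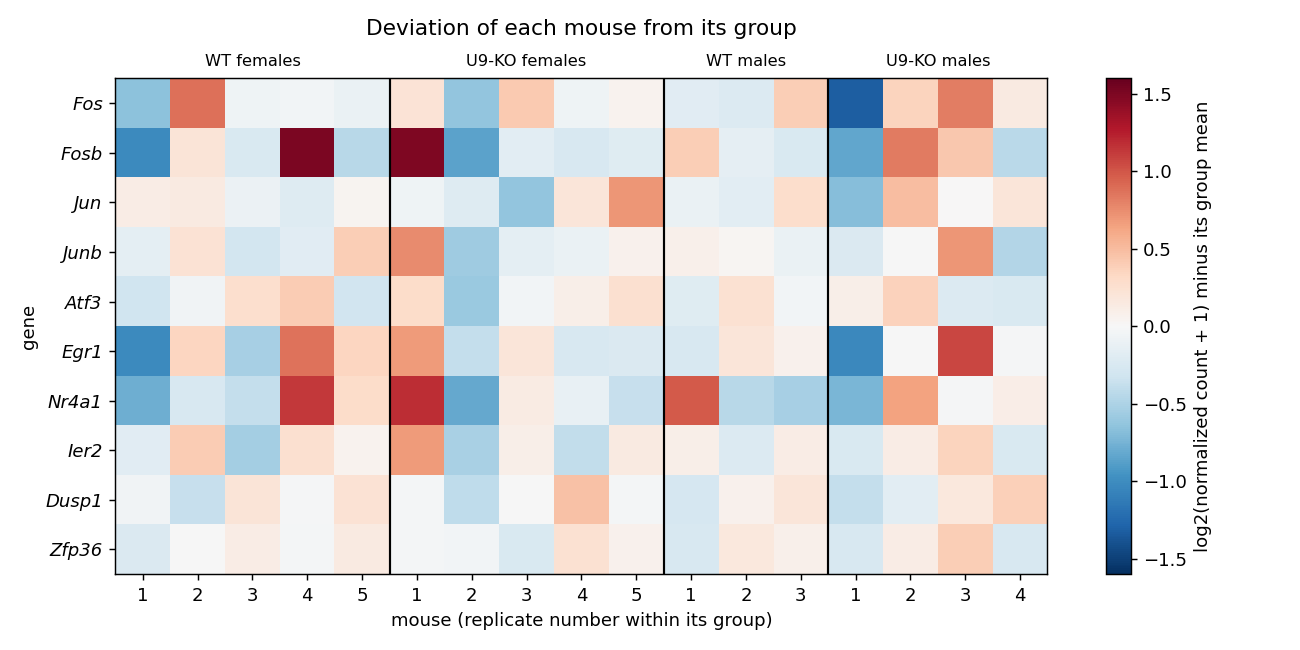
Deviation of each mouse (x axis, replicate number within its group) from its group mean for the 10 members (y axis), as a difference of log2(normalized count + 1) shown by colour, with red above and blue below the mean. U9-KO female 2 and U9-KO male 1 are blue in most rows, and U9-KO female 1 and U9-KO male 3 are red in most.

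Single mice were high or low in several members at once. U9-KO male 1 had the lowest value of all 7 males in 8 of the 10 genes, and its mean deviation from its group was -0.56 on the log2 scale. U9-KO male 3 was the highest male in 5 genes, with a mean deviation of 0.37. Among the females, U9-KO female 1, which was rich in ovary markers, was highest in 5 genes (mean deviation 0.52), U9-KO female 2 was lowest of its group in 8 genes (-0.50), and WT female 1 was the lowest of all females in 5 (-0.43).

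How far the members moved together from mouse to mouse was measured on values centred on the group means, without the 2 libraries rich in ovary markers. Over these 15 mice, 42 of the 45 pairs had a Pearson correlation above 0, with a median r of 0.38 and 13 pairs (28.9%) at or above 0.5. Over all pairs of 17521 genes the median r was -0.00 and 11.3% reached 0.5. *Fos* and *Egr1* had the highest r, at 0.84 (Spearman's rho 0.75, n = 15, permutation p = 0.00468 and 0.00599), and r was 0.76 in the 8 females and 0.89 in the 7 males. *Fos* with *Fosb* (r = 0.77) and *Junb* with *Ier2* (r = 0.76) followed. With Benjamini-Hochberg adjustment over the 45 pairs none passed 0.05 by either coefficient, and the smallest adjusted permutation p was 0.0966 for r and 0.109 for rho. Leaving out the 2 mice farthest from the median of *Fos* gave r = 0.74 for *Fos* and *Egr1*. *Atf3* and *Dusp1* moved least with the rest, with a median r with the other 9 members of 0.13 and 0.14, and *Egr1* and *Fosb* most, with 0.59 and 0.58. With the 2 libraries included (17 mice), the median r was 0.35, and 4 pairs passed 0.05 after adjustment by r and 0 by rho. The highest was *Fosb* with *Nr4a1*, at r = 0.86 (adjusted permutation p = 0.0139), against 0.70 over the 15 mice.

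**Figure D4:**
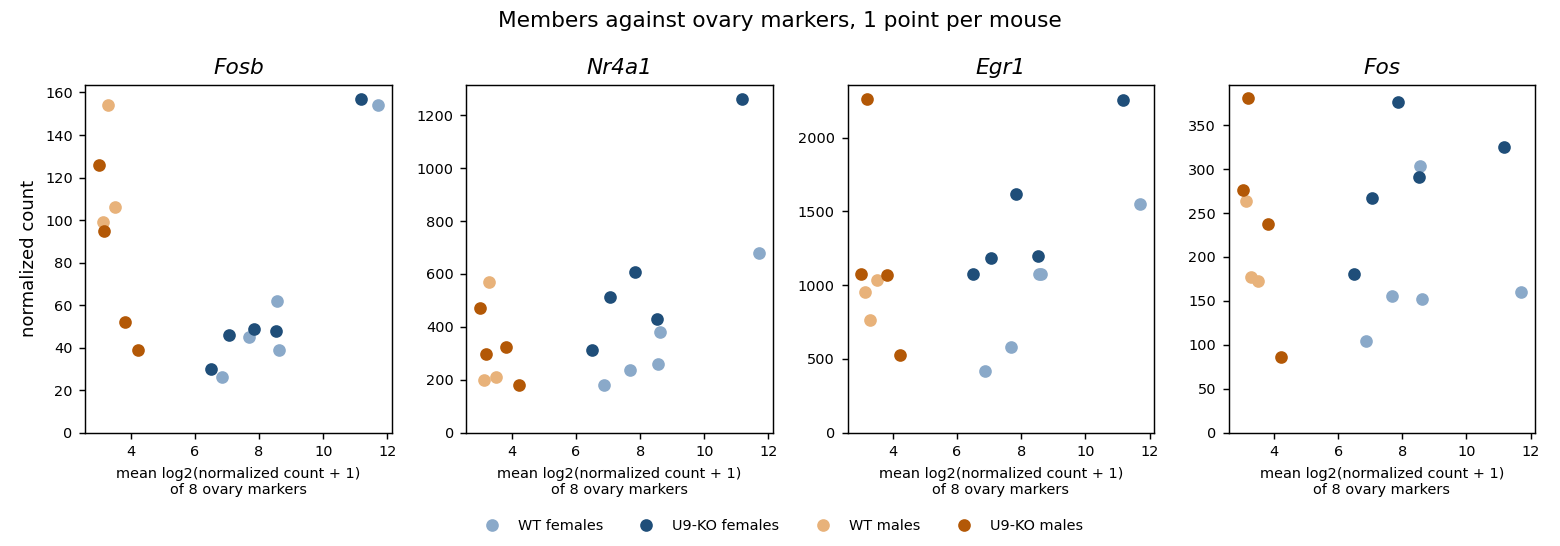
Normalized counts of 4 members (y axis, from 0) against the mean log2 level of 8 ovary markers (x axis) in each of the 17 mice. The 2 libraries at the far right, at 11.7 (WT female 4) and 11.2 (U9-KO female 1), are high in *Fosb* and *Nr4a1*, while *Fos* in WT female 4 is at 160, within the range of the other females.

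Both libraries rich in ovary markers exceeded all 8 other females in 3 of the 10 members, *Fosb*, *Atf3* and *Nr4a1* (30%), compared with 10.8% of all genes tested in females and 4 of 40 other immediate early genes. *Fosb* was at 154 and 157 in them and at most 62 in the other females, and *Nr4a1* at 680 and 1260 against at most 609. For *Atf3* the margin was small, 139 and 132 against at most 129. Among the 8 other females, all 10 members had a positive correlation with the ovary marker level within genotype, from r = 0.07 (*Dusp1*) to r = 0.83 (*Junb*). None passed 0.05 after Benjamini-Hochberg adjustment over the 10 exact permutation tests (smallest adjusted p = 0.118 for r and 0.226 for rho). With the 2 farthest mice left out, r turned to -0.64 for *Dusp1*, -0.35 for *Zfp36* and -0.29 for *Atf3*. It stayed positive for the other members, from 0.12 (*Nr4a1*) to 0.83 (*Ier2*). The males, with an ovary marker level of 3.02 to 4.23, had *Fosb* values of 39 to 154.

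Other immediate early genes were described from a list of 40. In females 22 were higher and 18 lower in U9-KO (49.9% of all genes were higher), none passed the adjusted threshold, and 2 had an unadjusted p below 0.05 (2.23% of all genes). Without the 2 libraries rich in ovary markers 19 of the 39 tested were higher, and 0 had an unadjusted p below 0.05 in limma. *Egr3*, a relative of *Egr1*, had the largest difference, with a mean of 41.0 ± 14.1 normalized counts in the WT females and 95.4 ± 81.9 in the knockouts (SD, 5 mice of each genotype), a log2 fold change of 0.94 with an SE of 0.45. *Arc*, best known from neurons, was at 0.62 with an SE of 0.46. Without these libraries *Egr3* was at 0.69 (SE 0.32) and *Arc* at 0.21 (SE 0.36). In males 31 of the 40 were lower and 9 higher, with a median log2 fold change of -0.19, on a background in which 50.1% of all genes were higher. An unadjusted p below 0.05 was returned by limma for 9 of them (7.6% of all genes), again with none past the adjusted threshold. *Dusp2*, a nuclear MAP kinase phosphatase, had 20.3 ± 6.81 normalized counts in WT males (n = 3) and 11 ± 1.41 in U9-KO males (n = 4), and *Gadd45g*, a stress-response gene, had 986 ± 271 and 611 ± 51.1, a log2 fold change of -0.65 with an SE of 0.17 (limma adjusted p = 0.612).

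Genes upstream of the response were described from a list of 16 kinases and factors. In U9-KO females 14 were higher (49.9% of all genes were), with a median log2 fold change of 0.04. In the male knockouts 8 were higher and as many lower (50.1% of all genes were higher). None passed the adjusted threshold. An unadjusted p below 0.05 was returned by limma for 1 gene in females, *Mrtfb* (2.23% of all genes), and 1 in males, *Elk1* (7.6% of all genes). Without the 2 libraries rich in ovary markers 11 of the 16 were higher in females (51.2% of all genes were). *Mapk14*, the p38 kinase, was at 0.24 (SE 0.15) and *Mrtfb*, a coactivator of serum response factor, at 0.22 (SE 0.08) in females. In males *Elk1*, which binds promoters together with serum response factor, was at 0.36 (SE 0.08, limma adjusted p = 0.612) and *Srf* at -0.19 (SE 0.14).

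Genes that mark other kinds of stimulus around collection were read beside the members. Of 10 glucocorticoid targets, 9 were lower in U9-KO males and 8 in U9-KO females, with medians of -0.23 and -0.12, beside shares of 50.1% and 49.9% of all genes that were higher. In males 5 had an unadjusted p below 0.05 (7.6% of all genes) and in females 0 (2.23% of all genes), and none passed the adjusted threshold. *Zbtb16*, a strongly glucocorticoid-induced repressor, had 3068 ± 881 normalized counts in the WT males, against 1712 ± 318 in the knockouts (log2 fold change -0.82, SE 0.20, limma adjusted p = 0.612), and *Cebpd* was at -0.41 with an SE of 0.12. Of 8 heat shock genes, 6 were higher in female and 5 in male knockouts, with *Hsph1*, a chaperone of the heat shock response, at 0.23 (SE 0.17) and 0.43 (SE 0.16). *Hspb1* went the other way in females, at -0.22 (SE 0.24). *Hsp90aa1* was at 0.24 (SE 0.08) in males. The heat shock genes with an unadjusted p below 0.05 numbered 0 in females and 2 in males, *Hsph1* and *Hsp90aa1*. In females without the 2 libraries rich in ovary markers *Hsph1* was at 0.09 (SE 0.15). Of the 9 hypoxia genes, 4 were higher in each sex, and 2 in females and 1 in males had an unadjusted p below 0.05. *Egln3*, an oxygen-sensing hydroxylase, was at 0.47 in females (SE 0.21) and *Ddit4*, an inhibitor of mTOR signalling, at -0.76 in males (SE 0.28). *Angptl4* was lower in the female knockouts, at -0.39 (SE 0.29). Of the 6 cAMP-responsive genes of fat, 5 were higher in female knockouts, and 4 of the 5 tested were higher in male knockouts. None of these genes had an unadjusted p below 0.05 in either sex. Without the 2 libraries rich in ovary markers the number lower in U9-KO females was 7 of 10 for the glucocorticoid targets, and the number higher was 7 of 8 for the heat shock genes, 5 of 9 for the hypoxia genes and 6 of 6 for the cAMP-responsive genes (51.2% of 23864 genes were higher). *Dio2*, which activates thyroid hormone, was at 0.59 in females (SE 0.53) and 0.94 in males (SE 1.01). In the male knockouts B cell markers were lower in 4 of 4 genes (summed range 214 to 243, against 295 to 730 in WT) and macrophage markers in 5 of 5 (15404 to 20481, against 21109 to 35488), and their part in the lists for males was not tested.

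The genes most like the members were sought by the correlation of each gene with the members' mean over all 17 mice, centred on the group means, among 13740 genes with a mean of at least 50. They were *A930007I19Rik*, annotated as an antisense RNA (r = 0.89), *Ints3*, a subunit of the Integrator complex (0.86), *Klhdc2*, a substrate receptor for protein degradation (0.84), *Gm49602* (0.83) and *Cenpt*, a centromere protein (0.83). For these 5 genes r was between 0.76 and 0.89 without the 2 libraries rich in ovary markers. Of the 40 other immediate early genes, 36 were in the search, and 26 of them had an r above 0 (48.5% of all genes in the search) with a median of 0.24. They ran from *Egr3* (r = 0.75, rank 38) to *Rhob* (r = -0.46, rank 12727), both named after their values were seen. Without the 2 libraries 30 of the 36 were above 0 (50.5% of all genes), the median was 0.30, and *Egr3* was at 0.64 and *Rhob* at -0.24. These values describe the 17 libraries, and the genes share the libraries' depth and makeup.

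Some counts could be affected by neighbouring annotation. In GENCODE the locus of *Jun* overlaps the antisense gene *Junos* (10 to 99 normalized counts), that of *Zfp36* the antisense gene *Gm44710* (11 to 44), that of *Junb* the gene *Prdx2* (2026 to 3964) and that of *Dusp1* the gene *Ergic1* (2146 to 4933), all on the opposite strand. The libraries were stranded, and whether strand was used in counting is not given in the sources used here.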

How the data were processed

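RNA of unseparated pWAT from 17 mice was sequenced as stranded, oligo(dT)-selected paired-end libraries, from RNA with an integrity number above 7. According to the methods and the submitters' processing notes, the authors trimmed the reads, aligned them to GRCm38 with STAR 2.7.3a, counted them per gene in union mode and normalized the counts with DESeq2 1.28.1. The deposited values are treated here as a score, because the authors had rounded these normalized counts to whole numbers. Reads per library were estimated from the whole numbers that the rounding skips or doubles.

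Symbols, positions and exon lengths came from GENCODE M21. Genes with a total of at least 10 were tested with limma 3.58.1 in R 4.3.3 on log2(value + 1) with a mean-variance trend, for each sex, for the interaction and for the sexes with genotype as a covariate. The adjusted p (Benjamini-Hochberg) had a threshold of 0.05. At this threshold the paper's own DESeq2 analysis called genes between the genotypes in each sex, which limma on these rounded values did not. Fold changes on this scale understate those of low genes. Exact permutation tests were two-sided (scipy 1.17.1), and correlations were permuted within groups 100000 times, or exhaustively over 8 females. The fits were tested on simulated data.

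The members and the other lists were chosen with earlier results of these data known. Named genes were all members, up to 2 of each other list and sex with the largest absolute log2 fold change, and the 5 genes most like the members. Replicates are separate mice. The combined table of the series was not used here.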

Additional observations from a re-analysis of the deposited data

Results flagged for a closer look

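Of 30 groups of 4 or 5 mice looked at (10 genes in 3 groups), 3 held a mouse whose gap to the nearest other mouse was a larger share of the group's range than Dixon's 95% critical value allows. For normally distributed values chance would flag about 1 in 20 groups, which gives 1.5 of 30. The rule was applied to normalized counts without a log, and whether that rate holds for them was not tested. *Fos* was at 303 normalized counts in WT female 2, against 104 to 160 in the other 4 WT females. *Fosb* was at 154 in WT female 4, against 26 to 62 in the others of its group, and at 157 in U9-KO female 1, against 30 to 49. Both *Fosb* values came from the libraries with the highest ovary markers, and the part of ovarian tissue in them was not tested. The groups of 3 WT males were too small for this rule.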

How the results depend on the processing

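No member passed the adjusted threshold of limma in females, in males or in the interaction under any of the alternatives run, and *Fos*, *Egr1*, *Nr4a1*, *Junb*, *Ier2*, *Dusp1* and *Zfp36* were higher in the female knockouts in all of them. The number of members with an unadjusted p below 0.05 moved between 1 and 6 in females and between 0 and 2 in males. Without the mean-variance trend, 1 gene was called in females and 1 in males. Leaving out 1 mouse gave 0 to 71 called genes in males, 71 without WT male 1, and 0 in females. With the replicate number as a block, 0 genes and 0 members were called in either sex. Same-numbered mice did not deviate together in the members (correlations of -0.46 to 0.24 among the females, and of -0.05 to 0.08 among the males). The labels do not say what the numbers stand for, and so few pairs cannot settle whether they pair the mice.

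The direction of small differences changed when 1 mouse was left out. In females the log2 fold change ranged from -0.33 to 0.42 for *Fosb*, from -0.18 to 0.16 for *Jun* and from -0.043 to 0.18 for *Atf3*. In males it ranged from -0.17 to 0.54 for *Fos*, from -0.29 to 0.10 for *Jun*, from -0.10 to 0.59 for *Egr1*, from -0.20 to 0.55 for *Nr4a1* and from -0.17 to 0.087 for *Dusp1*. The interaction term of *Jun* ranged from -0.29 to 0.10. Of the differences between males and females, *Fos* ranged from -0.19 to 0.18, *Junb* from -0.12 to 0.085, *Egr1* from -0.32 to 0.032, *Ier2* from -0.095 to 0.075 and *Dusp1* from -0.12 to 0.019. Joint scaling turned *Fos* (0.044), *Junb* (0.085), *Ier2* (0.092) and *Dusp1* (0.058) to higher in males, quantile normalization turned *Fos* (0.22), *Junb* (0.16) and *Ier2* (0.18), and leaving out the 2 libraries rich in ovary markers turned *Junb* (0.052), *Egr1* (0.033) and *Ier2* (0.098). The members called between the sexes numbered 2 to 4 over the alternatives and 2 to 4 with 1 mouse left out. *Jun* lost its call without WT male 1, WT male 2 or U9-KO male 1, *Fosb* gained one without U9-KO female 1 and *Nr4a1* without WT male 1. The causes were not tested. With 3 to 5 mice a group, the 95% intervals of *Fos*, *Fosb*, *Egr1* and *Nr4a1* reached beyond 1 on the log2 scale in at least 1 sex.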
